A study of Rattus norvegicus with 11 samples.

Results

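Urothelial cells are the 210 cells that the authors named Uro among 114615 kidney cells of 11 male ZSF1 rats, profiled by droplet single-cell RNA sequencing. They were chosen by that name alone, 1 of 21 cell type names in the deposited table, which is read here as urothelial. The lean group (4 rats) and the obese group (4 rats) carried the treatment label none. The obese+enalapril group (3 rats) drank enalapril, an inhibitor of angiotensin-converting enzyme, in the water. All groups bear the same genotype label, ZSF1-LeprfaLeprcp/Crl, and the lean and obese phenotypes are labelled apart. Rats were 12 weeks old on arrival and ate high energy chow. The untreated obese rats drank vehicle, and whether the lean rats did is not stated. ZSF1 obese rats lack a working leptin receptor throughout the body and are used as a model of diabetic kidney disease. Each sample is a separate animal. The series title names blockade of the renin-angiotensin-aldosterone system as its subject.

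The urothelium is the layered epithelium that lines the renal pelvis, ureter and bladder and keeps urine from the tissue beneath. Its surface cells carry plaques of uroplakins, among them the tetraspanin Upk1b, and its basal cells hold the keratin Krt5. In the kidney it borders on the papilla, where the collecting ducts open. Gene values were not analysed here, so neither Upk1b nor Krt5 could be set against the name, and each result below is a count of cells or a summary per cell. No sequence is shown for the same reason.

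The 11 libraries held 4232 to 18427 cells. Lean rat 2 stood apart as the shallowest, with a median of 407 UMIs (unique molecular identifiers, 1 per captured transcript) per cell and 12 cells of at least 1000 UMIs, where the other 10 rats had medians of 1132 to 3092. Of the Uro cells, 0 shared a cell barcode with another Uro cell, and 13 of 210 (6.19%) shared one with a cell of some other type in another library, against 2.86% of all cells.

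Uro cells were found in all 11 rats, but 102 of the 210 came from 2 lean rats. Lean rats 1 to 4 held 46, 56, 6 and 6 of them, obese rats 1 to 4 held 13, 10, 10 and 9, and treated rats 1 to 3 held 24, 21 and 9. As a share of all cells, the lean rats were at 0.413%, 1.32%, 0.0779% and 0.0928%. The exact 95% Clopper-Pearson interval was 0.302% to 0.550% in lean rat 1 and 1.00% to 1.71% in lean rat 2. In lean rat 3 it was 0.0286% to 0.170%, and in lean rat 4 0.0340% to 0.202%. Lean rats 1 and 2 thus lay above the other lean rats by more than counting error, which is all that these intervals cover.

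The obese rats were at 0.120%, 0.142%, 0.0867% and 0.0488%, and the treated rats at 0.134%, 0.183% and 0.115%. Every one of these 7 values lay between the values of lean rat 4 and lean rat 1, except those of obese rats 3 and 4, which were below lean rat 4. The obese and treated rats overlapped with each other and with the lean rats. Lean rats 1 and 2 share the first part of their sample code, as do lean rats 3 and 4, and the labels do not say what that part stands for.

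**Figure D1:**
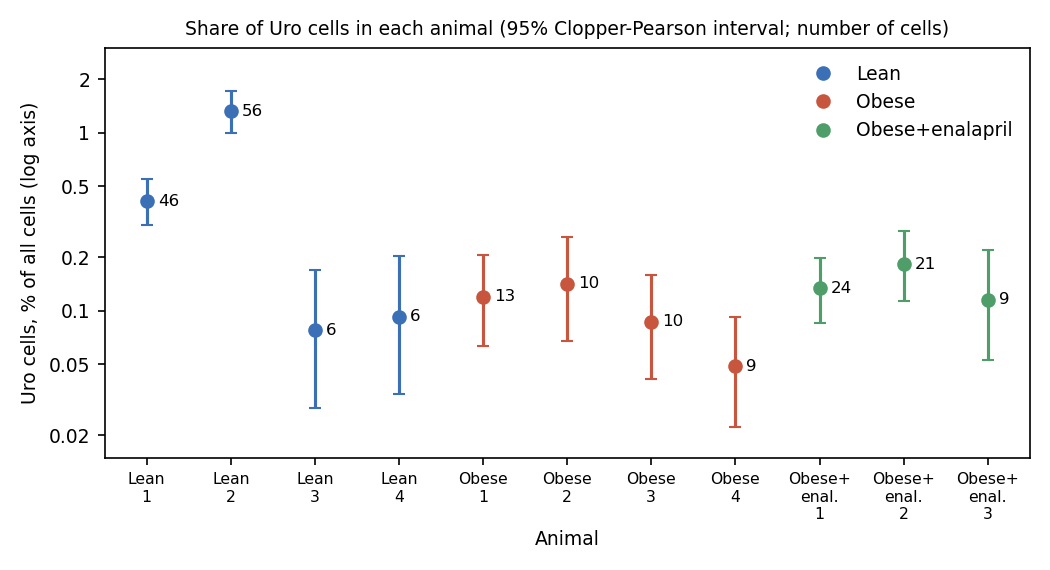
Uro cells as a percent of all cells (log axis) in each of the 11 animals, with exact 95% Clopper-Pearson intervals and the number of Uro cells beside each point. Lean rats 1 and 2, at 0.413% and 1.32%, lie above the other 9 animals, which range from 0.0488% to 0.183%.

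No tested type was more uneven among the lean rats. The coefficient of variation of the Uro share over 4 lean rats was 1.23, the highest of 20 types, and the highest lean value was 17.0 times the lowest. In the obese rats the coefficient was 0.409 and ranked 11 of 20, and in the treated rats it was 0.244 and ranked 9 of 20. These are descriptions of the samples, and the difference in spread between groups was not tested.

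In obese against lean rats the Uro share fell from 0.477% ± 0.585 to 0.0993% ± 0.0406 (SD, n = 4 each). edgeR's quasi-likelihood test over all 20 types gave a log2 fold change of -2.24 ± 0.71 (SE) and a Benjamini-Hochberg adjusted p of 0.0134. In that comparison 6 of 20 types (30%) were called lower and 12 of 20 (60%) were called in either direction, so a call was common. Only 1 of 4 obese rats, rat 4, lay below every lean rat. Without lean rat 2 the value was -1.09 ± 0.52 (adjusted p = 0.0715), and without obese rat 4 it was -1.98 ± 0.80 (adjusted p = 0.0529). Without both lean rats 1 and 2 the sign turned, to 0.16 ± 0.69 (adjusted p = 0.860), and without lean rats 3 and 4 it was -3.14 (adjusted p = 0.000266). Among the fits that left out lean rats, the call was kept wherever lean rat 2 was kept. It was also lost in limma on log2 odds (-1.45 ± 0.66, adjusted p = 0.0630) and when cells under 1000 UMIs were dropped (-1.58 ± 0.69, adjusted p = 0.0676), which left lean rat 2 with 2 Uro cells among 12. With at least 500 UMIs the value was -3.59 (adjusted p = 0.0281), as lean rat 2 then kept 54 of its 56 Uro cells but 1137 of its 4232 cells. An exact two-sided permutation test of the log2 odds over the 8 rats gave p = 0.257, and 0.386 after adjustment over 3 comparisons.

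A larger immune share lowers the share left for all other types together. Immune cells took 34.4% ± 2.74 of each obese library and 13.4% ± 5.96 of each lean one. Among non-immune cells alone, Uro cells made up 0.501%, 1.43%, 0.0968% and 0.102% in lean rats 1 to 4. The obese rats were at 0.174%, 0.228%, 0.133% and 0.0738%. On this base the obese values of rats 1 to 3 lay above those of lean rats 3 and 4. The log2 fold change was -1.81 ± 0.74 and was not called (edgeR, adjusted p = 0.0871), while 1 of 15 non-immune types (6.67%) was called lower. It was called by DESeq2 (-1.82 ± 0.67, adjusted p = 0.0255). DESeq2 called 5 of 15 non-immune types in either direction, and edgeR 3 of 15. The Uro change was called by edgeR when lean rat 3 (-2.17 ± 0.67, adjusted p = 0.0212) or else lean rat 4 was dropped (-2.16 ± 0.70, adjusted p = 0.0338). Without lean rat 2 it was -0.74 (adjusted p = 0.446), and without lean rats 1 and 2 it was 0.54 ± 0.66 (adjusted p = 0.667).

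Between treated and untreated obese rats the Uro share was 0.144% ± 0.0352 (SD, n = 3) against 0.0993% ± 0.0406 (SD, n = 4). The log2 fold change was 0.59 ± 0.76 (edgeR, adjusted p = 0.646), and the largest share of an untreated rat, 0.142%, was above 2 of the 3 treated rats. edgeR called 0 of 20 types (0%) in this comparison, with 2 at an unadjusted p under 0.05, and limma called 0 and DESeq2 1. Among non-immune cells the treated rats were at 0.157%, 0.221% and 0.147%, inside the range of the untreated obese rats, and the log2 fold change was 0.26 ± 0.80 (edgeR, adjusted p = 0.979).

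Against lean rats, which serve as controls here too, the treated rats had a log2 fold change of -1.65 ± 0.75 (edgeR, adjusted p = 0.101). It did not pass, in a comparison where 2 of 20 types (10%) were called lower. It passed without lean rat 3 (-2.02 ± 0.68, adjusted p = 0.0364) and without lean rats 3 and 4 (-2.54 ± 0.60, adjusted p = 0.00328), and turned positive without lean rats 1 and 2 (0.76 ± 0.70, adjusted p = 0.510). All 3 treated rats lay above lean rats 3 and 4 and below lean rats 1 and 2.

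The Uro cells were compared with the collecting duct, their neighbour in the kidney. Principal cells (PC), which take up water and sodium there, are the type whose share ran most like that of Uro cells over the 11 rats, with a Spearman correlation of 0.727. It was 0.673 without lean rat 2 and 0.567 without lean rats 1 and 2. Next came the thick ascending limb (TAL), which takes up salt without water, at 0.509, and TAL/MD, which adds the salt-sensing macula densa, at 0.436. Without lean rats 1 and 2 these were 0.117 and 0.317, and the types that followed PC were then DTL (descending thin limb) at 0.433 and PST (proximal straight tubule) at 0.367. Type B and type A intercalated cells, which handle acid and base, were at 0.391 and 0.218. All shares of an animal rest on the same library and total.

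PC made up 1.44%, 1.44%, 1.03% and 0.866% of the cells of lean rats 1 to 4, and 1.13%, 1.09%, 1.44% and 0.347% of those of obese rats 1 to 4. In the treated rats they were at 1.06%, 1.6% and 1.27%. Lean rats 1 and 2 were high for both types, yet their PC share was matched by obese rat 3, whose Uro share was 0.0867%, and exceeded by treated rat 2, at a Uro share of 0.183%. For every 100 PC there were 28.6, 91.8, 7.59 and 10.7 Uro cells in lean rats 1 to 4. Obese rats 1 to 4 had 10.6, 13, 6.02 and 14.1, and treated rats 12.6, 11.5 and 9.09. Obese rat 4, lowest of all rats in both shares, had the most Uro cells per PC of its group, from 9 Uro cells and 64 PC. Obese rat 2 was close to it, with 10 Uro cells and 77 PC. PC were not called between obese and lean rats (-0.26 ± 0.42, edgeR, adjusted p = 0.583), while type A (-1.64 ± 0.53, adjusted p = 0.0141) and type B intercalated cells (-1.73 ± 0.51, adjusted p = 0.0118) were called lower. Lean rat 2 was high in these too. Type A was at 10.6% there and 2.31% to 4.17% in the other lean rats, type B at 7.28% and 2.41% to 3.45%. Obese rats reached 2.43% in type A, above lean rats 1 and 4, and 2.11% in type B, below every lean rat. Fits of these types without lean rat 2 are not given here.

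**Figure D2:**
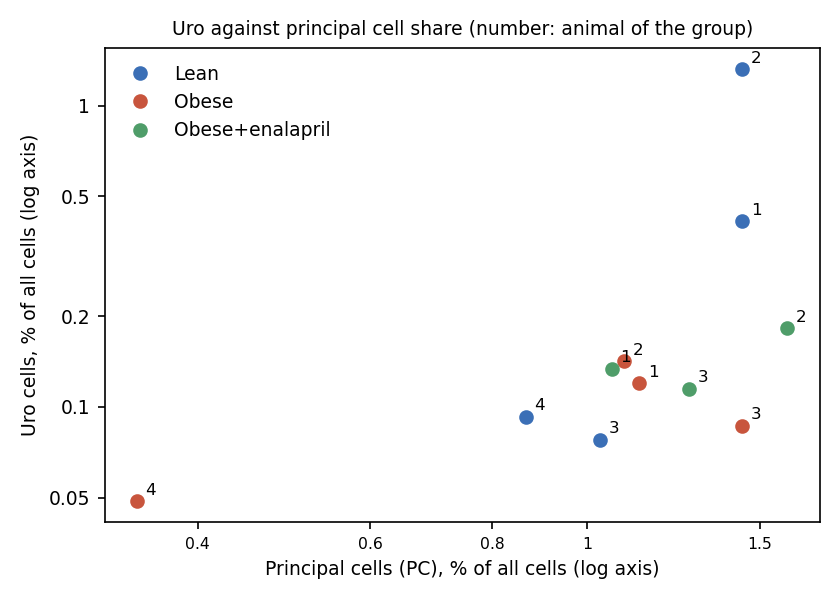
Uro cells against principal cells, both as a percent of all cells on log axes, with 1 point per animal numbered within its group. Lean rats 1 and 2 and obese rat 3 have nearly the same principal cell share, 1.44%, at Uro shares of 0.413%, 1.32% and 0.0867%, and obese rat 4 is lowest on both axes.

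On the authors' map, which places cells of similar expression near each other and was made from the same cells as the names, Uro cells formed a small island. Of the 10 nearest cells of each Uro cell, 92.4% were Uro, 4.48% PC and 1.38% DCT/CNT (distal convoluted or connecting tubule). By their median positions the nearest types were Podo/Stroma (podocytes or stroma, 1.87 map units), DTL (1.89) and PC (2.31), in units that have no measure outside the map. In all, 198 cells had at least 5 Uro cells among their 10 nearest. The other 12 lay off the island, at a median of 0.952 units from its centre against 0.0735, with a median of 1417 UMIs against 4469 and a mitochondrial share of 13.2% against 2.27%. These medians pool groups of unequal make-up, as 113 of the 198 island cells were from lean rats and 8 of the other 12 from obese rats. In obese rats 1 to 4 the island cells themselves had mitochondrial medians of 14.4%, 8.48%, 13.9% and 11.4%, around the level of the cells off the island.

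The cells off the island were 1 of 114 in lean, 8 of 42 in obese and 3 of 54 in treated rats. By animal they made up 2.17%, 0%, 0% and 0% of the Uro cells of lean rats 1 to 4 and 23.1%, 10.0%, 20% and 22.2% in obese rats 1 to 4. Treated rats 1 to 3 were at 0%, 4.76% and 22.2%. Each obese rat was above every lean rat, but the cells behind this are few. They numbered 3, 1, 2 and 2 in obese rats 1 to 4 and 1, 0, 0 and 0 in lean rats 1 to 4. Lean rats 3 and 4 had only 6 Uro cells each. No other type was split in this way, so how many types part the groups likewise is not known. This split was made after the map was seen and was not tested. Leaving these 12 cells out, the obese against lean change was -2.53 ± 0.73 (edgeR, adjusted p = 0.0101).

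**Figure D3:**
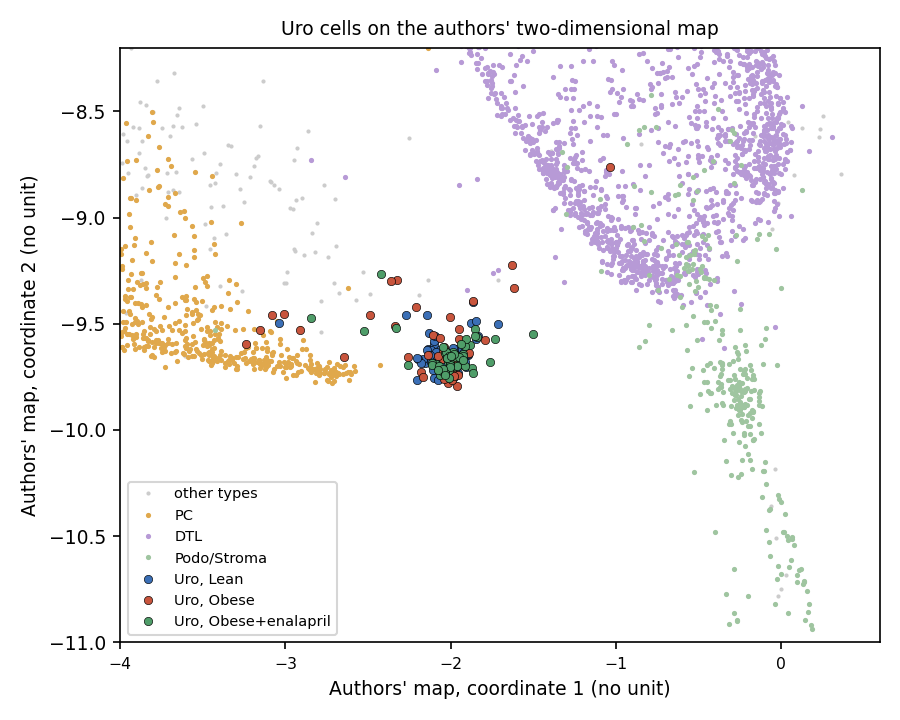
Uro cells, coloured by group, on the authors' map around their island, with principal cells, descending thin limb, podocytes or stroma and all other types as small points. Most of the 210 Uro cells sit in 1 tight island, and of the 12 off it, 8 are from obese rats.

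Uro cells were among the richest cells of the kidney in RNA. Over all 210 cells the UMIs ran from 409 to 13207 with a median of 4280.5, and the detected genes from 212 to 2864 with a median of 1487. The highest values lay close to 2971 genes, the most in any deposited cell. Lean rats 1 to 4 had medians of 7219.5, 746.5, 3622 and 7470.5 UMIs per Uro cell. Obese rats 1 to 4 were at 6219, 4875.5, 5749 and 988, and treated rats 1 to 3 at 3652, 7862 and 7265. Lean rat 2 and obese rat 4 were low, and the other 9 rats lay between 3622 and 7862.

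In 10 of 11 rats the Uro median was above the median of the other non-immune cells, at 1.69 to 5.27 times its size. Lean rat 1 had the widest gap. In obese rat 4 the Uro median was 0.466 times that of the other non-immune cells (2122 UMIs). Among the types with at least 5 cells in an animal, Uro ranked between 1 and 5 by UMIs in the same 10 rats and 20 of 21 in obese rat 4. In lean rat 1, 35 of the 279 cells with at least 6000 UMIs were Uro, or 12.5% (exact 95% interval 8.90% to 17.0%). In obese rat 4 it was 0 of 1796 such cells, for which the exact interval reaches 0.205%. These 2 rats were the extremes. Lean rats 3 and 4 were at 0.12% and 0.745%, and obese rats 1 to 3 at 1.05%, 0.932% and 0.252%, so the groups overlapped. Lean rat 2 had no cell of that size. Treated rats 1 to 3 were at 3.33%, 0.846% and 0.587%. The value of treated rat 1 rests on 1 Uro cell of 30 (exact 95% interval 0.0844% to 17.2%), and that of lean rat 3 on 1 of 830. These UMIs come from the same transcripts as the cell type names, so the rank is a description.

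**Figure D4:**
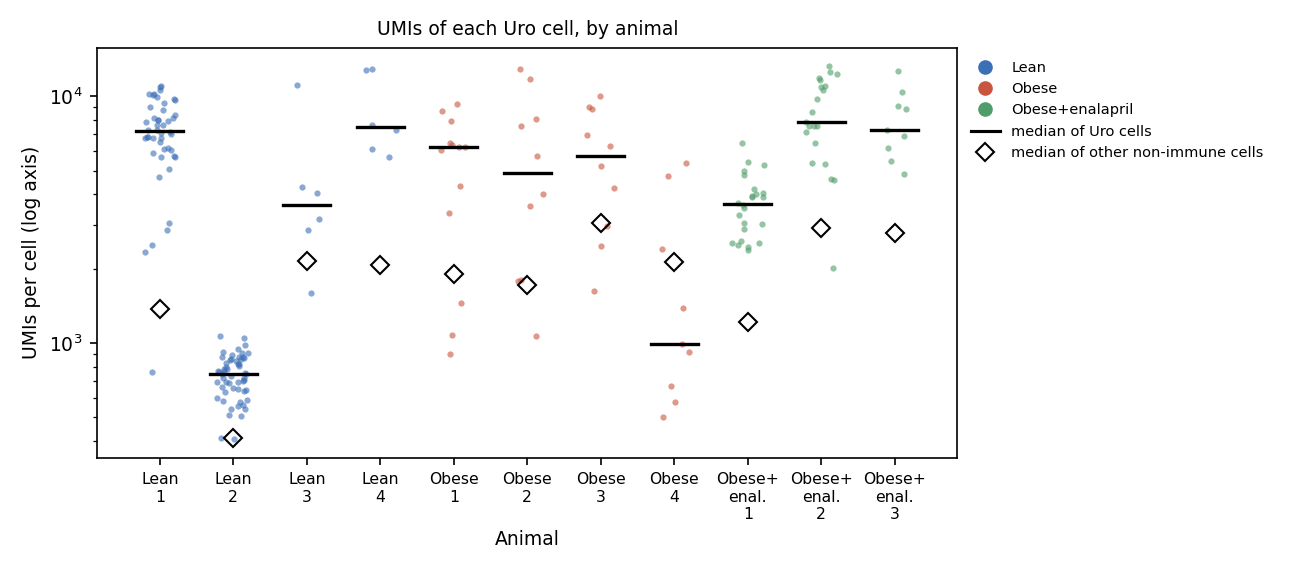
UMIs of each Uro cell on a log axis, by animal, with the Uro median as a bar and the median of the animal's other non-immune cells as a diamond. The bar lies above the diamond in 10 of 11 animals, and in obese rat 4 it is at 988 against 2122.

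Median UMIs per Uro cell were not called different between any groups. Obese against lean rats differed by 0.06 ± 0.69 on the log2 scale of median UMIs (limma over 20 types, adjusted p = 0.931), and the sign turned without lean rat 2 (-0.68 ± 0.44), and also without obese rat 1, 2 or 3 (-0.20, -0.08 and -0.16). All 20 types had a higher estimate in obese rats, with a median of 0.95, and 0% were called, with 4 of 20 at an unadjusted p under 0.05. Treated against untreated obese rats differed by 0.71 ± 0.74 (adjusted p = 0.919, 0% called, 0 of 20 unadjusted). Treated against lean rats differed by 0.77 ± 0.74 (adjusted p = 0.583, 0% called, 1 of 20 unadjusted).

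The mitochondrial share of a cell's UMIs is often used as a sign of damage and of mitochondrial content. Over all 210 Uro cells it ran from 0% to 37.6% with a median of 2.57%, or 4.68% without lean rat 2. The Uro median was below that of the other non-immune cells in 11 of 11 rats, by 1.80 to 15.1 percentage points. Those other cells were pooled over types whose shares differed between animals. Counted from the highest of the 20 or 21 types, Uro ranked between 9 and 13 in 6 rats, the middle of the range, and between 15 and 20 in the other 5. Lean rats 1 to 4 had Uro medians of 2.83%, 0%, 10.2% and 4.42%. Obese rats 1 to 4 were at 16.0%, 9.41%, 13.9% and 11.4%, and treated rats 1 to 3 at 1.15%, 4.68% and 7.5%. Obese rats were the high group, with lean rat 3 alone above the lowest of them, and every treated rat lay below every untreated obese rat. In lean rat 2, 33 of 56 Uro cells had no mitochondrial UMI at all, at a median of 746.5 UMIs.

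As means ± SD over animals, the medians were 4.36% ± 4.3 in lean (n = 4), 12.6% ± 2.86 in obese (n = 4) and 4.44% ± 3.18 in treated rats (n = 3). Obese rats were 8.29 ± 2.69 percentage points above lean rats (SE, limma over 20 types, adjusted p = 0.0670), which did not pass. The call was made without lean rat 3 (10.2 ± 2.63, adjusted p = 0.0280) and without treated rat 1 (8.29 ± 2.58, adjusted p = 0.0405), which enters only the shared spread. Of 11 limma fits that each left out 1 rat, only these 2 made it, and the adjusted p reached 0.24. Without lean rats 1 and 2 the difference was 5.34 ± 3.23 points (limma, adjusted p = 0.652). Among cells of at least 1000 UMIs it was 7.45 ± 3.06 (adjusted p = 0.374). In this comparison 1 of 20 types (5%) was called higher, and all 20 had a higher estimate, with a median of 5.16 points.

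Treated rats were 8.21 points below untreated obese rats (-8.21 ± 2.90, limma, adjusted p = 0.320). No type passed there (0%, 2 of 20 at an unadjusted p under 0.05), and 19 of 20 types had a lower estimate, with a median of -3.31. Of the 20 types, 1 (5%) had all treated rats below all untreated ones, and that type was Uro. An exact two-sided permutation test of the Uro medians gave p = 0.0286, the smallest that 3 against 4 rats allow, and 0.0857 after adjustment over 3 comparisons. Treated and lean rats differed by 0.0839 ± 2.90 points (adjusted p = 0.977), in a comparison where 5% of types were called higher.

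The rest of the kidney moved too. The other non-immune cells had a median mitochondrial share of 8.80% ± 4.36 in lean, 18.3% ± 3.18 in obese and 13.9% ± 8.69 in treated rats. Measured as the Uro median minus that of the other non-immune cells of the same animal, the groups were at -4.44 ± 3.29, -5.62 ± 4.10 and -9.45 ± 5.52 points. On this scale obese against lean rats differed by -1.18 points, the opposite sign (exact permutation test, p = 0.571), and treated against untreated obese rats by -3.83 points (adjusted p = 0.514). The other non-immune cells are a pool of types, and its make-up was not the same in each group. PST, for example, made up 3.64% ± 1.49 of all cells in lean, 8.87% ± 2.49 in obese and 7.41% ± 1.14 in treated rats. The sign on this scale may therefore depend on the make-up of the pool, which was not tested. The part of the animal's general mitochondrial level in the Uro difference was not tested further.

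**Figure D5:**
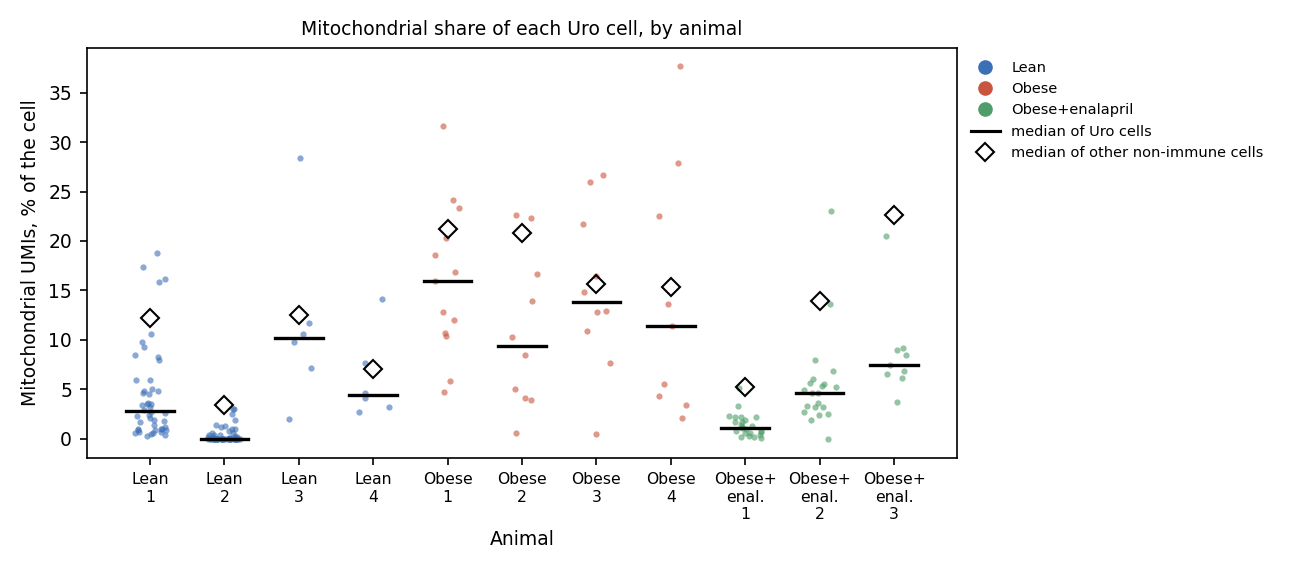
Mitochondrial UMIs as a percent of the cell for each Uro cell, by animal, with the Uro median as a bar and the median of the animal's other non-immune cells as a diamond. The bars of the 4 obese rats lie between 9.41% and 16.0%, all above those of the 3 treated rats, and every bar lies below its diamond.

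Low mitochondrial shares set the lean and treated cells apart in some animals only. Uro cells under 5% numbered 33 of 46, 56 of 56, 1 of 6 and 4 of 6 in lean rats 1 to 4. They numbered 1 of 13, 3 of 10, 1 of 10 and 3 of 9 in obese rats, and 23 of 24, 12 of 21 and 1 of 9 in treated rats. Lean rat 3 and treated rat 3 were thus as low in such cells as the obese rats. The mean percent was 63.8 ± 34.7 in lean, 20.3 ± 13.3 in obese and 54.7 ± 42.4 in treated rats. Among the other non-immune cells it was 39.7 ± 14.3, 17.8 ± 4.98 and 26.6 ± 19.9, in the same order of groups. Cells above 20% were 12 of 42 in the obese rats, 1 of 114 in the lean and 2 of 54 in the treated rats. The lean count includes the 56 cells of lean rat 2, where the highest value was 3.07%.

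The urothelium renews slowly in healthy adults, and the table gives each cell a phase called from scores of S and G2M genes. Of the Uro cells of lean rats 1 to 4, 60.9%, 67.9%, 50% and 50% were called S or G2M. The obese rats were at 76.9%, 50%, 60% and 55.6%, and the treated rats at 58.3%, 57.1% and 77.8%. The other non-immune cells were at 28.7% to 53.6%, and the Uro value was higher in 10 of 11 rats. Such shares may depend on depth and on how phases were called, which was not tested, and no dividing cells are read from them. Lean rat 2, at a median of 746.5 UMIs, had 26 of its 56 Uro cells called G2M, against 10 of 46 in lean rat 1. The other non-immune cells of lean rat 2, at a median of 412 UMIs, had the lowest share called S or G2M, 28.7%. Obese rat 4, at a median of 988 UMIs per Uro cell, lay below obese rats 1 and 3 and above obese rat 2.

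No group comparison of the cycle measures passed for Uro cells. The percent called S or G2M differed by 3.44 ± 6.81 points between obese and lean rats (limma, adjusted p = 0.687). All 20 types had a higher estimate there, with a median of 9.68 points, and 1 of 20 (5%) was called. The mean G2M score was -0.0116 ± 0.00811 in lean, -0.0145 ± 0.00932 in obese and -0.0273 ± 0.00755 in treated rats. Treated rats were lower than lean rats by an estimated -0.0157 ± 0.00572 (limma, adjusted p = 0.162) and than obese rats by -0.0128 ± 0.00572 (adjusted p = 0.273). Most types went the same way against untreated obese rats, with 17 of 20 lower in G2M score (median -0.00401). Against lean rats 8 of 20 types were lower. The mean S score of treated rats was 0.0117 ± 0.00655 above that of lean rats (limma, adjusted p = 0.283).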

How the data were processed

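Kidney cells of 11 rats were profiled by 10x droplet sequencing (10000 cells loaded, per the labels' protocols). Build rn6 and the tools Cell Ranger 7.0.1 and, beside it, Seurat 4.3.0 appear in the submitters' processing notes, with no roles. Cell filters, clustering, naming and how doublets and free RNA were treated are not given in the sources at hand. The authors deposited 1 line per cell: UMI and gene counts (not normalized), the mitochondrial percent, S and G2M scores, map coordinates (a score without unit), phase, group and cell type name, per the file headers. No gene values were used.

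Cells were assigned to animals by the sample code in the labels. Cells named Uro were counted per animal, and counts of all types with a mean of at least 10 cells were fitted together with edgeR 4.0.16 (quasi-likelihood, robust, no abundance trend, the animal's cells as library size) in 1 fit over 3 groups. The SE was taken as the size of the fold change (log2) divided by the root of the F statistic. The same was done on non-immune cells (without the 5 monocyte, macrophage, T and B cell names). Medians of UMIs and genes (log2) and of mitochondrial percent, mean scores and percent called S or G2M, from at least 5 cells, were fitted with limma 3.58.1 over all types. p-values were adjusted by Benjamini-Hochberg over types (threshold 0.05). Single values were compared by exact two-sided permutation tests over animals (smallest p 0.0286 for 4 against 4 and for 3 against 4). The scripts were tested on simulated data. Alternatives were DESeq2 1.42.0, TMM factors, limma on log2 odds (0.5 added), other filters, the replicate number as a block and leaving out animals. Those that leave out a sample code or cells off the map island were chosen after seeing the data. Named types were Uro, PC, the intercalated cells, the 3 types nearest on the map and the 3 most alike in share. Members and lists were chosen with earlier results of these data known. The tests ran in R 4.3.3, and tables and figures were made in Python 3.11.15 with pandas 2.3.3, matplotlib 3.10.9, scipy 1.17.1 and numpy 2.4.6.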

Additional observations from a re-analysis of the deposited data

Results flagged for a closer look

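Obese rat 4 lay far from the other 3 obese rats in the size of its Uro cells. Its median of 988 UMIs per Uro cell compared with 4875.5 to 6219 in obese rats 1 to 3, and its median of 565 genes with 1777 to 1925.5. On the log2 scale both gaps exceeded Dixon's 95% critical value for 4 samples (0.829). Of its 9 Uro cells, 5 had under 1000 UMIs, against 1, 0 and 0 in obese rats 1 to 3. In all, 18 groups of 4 values were examined in this way and 2 passed, from the same 9 cells, where chance flags about 1 in 20 groups.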

How the results depend on the processing

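Of 468 values under an alternative, 413 kept their direction and their side of the threshold, 39 changed sign, 9 were newly called and 7 lost a call; where not stated otherwise the cause was not tested. The sign changes were in differences that had not been called, except for the Uro share in obese against lean rats without lean rats 1 and 2. For that share of all cells, limma and the exact permutation test gave -1.45 and cells of at least 1000 UMIs -1.58, without a call. Leaving out 1 animal or the animals of 1 code gave -3.14 to 0.16, for treated against lean rats -2.54 to 0.76. Without the code of obese rats 1 and 2 the call was lost at -2.77 (adjusted p = 0.0520), and without that of obese rats 3 and 4 at -1.80 (adjusted p = 0.127). For non-immune cells DESeq2 gave -1.82 with a call, and left-out animals gave -2.69 to 0.54 for obese against lean, -0.18 to 0.78 for treated against untreated and -2.43 to 0.81 for treated against lean rats. Same-numbered animals of different groups deviated together (correlation over 0.1) in 5 of 10 pairs. Their correlations ran from -0.444 to 0.516, and those of differently numbered animals from -0.569 to 0.52. The numbers were therefore not taken to pair animals. With the replicate number as a block, Uro in obese against lean rats was -1.69 (adjusted p = 0.0279), treated against untreated rats -0.19 among non-immune cells, and treated against lean rats -0.12 points in mitochondrial percent; the block changed no call.

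Left-out animals moved median UMIs (log2, obese against lean) from -0.68 to 0.68. They moved median genes from -0.46 to 0.57, for treated against untreated from -0.03 to 0.67 and for treated against lean from -0.06 to 0.84. The mitochondrial difference ran from 5.34 to 11.2 points for obese and from -2.86 to 3.03 for treated against lean rats. For obese against lean rats the S score ran from -0.00249 to 0.0081, the G2M score from -0.00585 to 0.0014 and the percent called S or G2M from -2 to 7; for treated against untreated rats that percent ran from -2.88 to 9.23. Against the other non-immune cells, obese minus lean was -0.71 for UMIs, -0.42 for genes and -1.18 points for mitochondrial percent, and treated minus lean -5.01 points. Among cells of at least 1000 UMIs, not set against other cells, treated minus lean was -1.34 points in mitochondrial percent. With at least 10 cells per animal, which drops 4 animals, treated against untreated rats gave -0.06 for UMIs and -0.09 for genes. The S score for obese against lean rats was then -0.00616, and the percent called S or G2M -2.06, -4.57 and -6.63 in the order obese against lean, treated against untreated and treated against lean. Medians from 6 to 13 cells, as in 7 of 11 animals, limit what could be detected.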
